A study of Homo sapiens with 8 samples.

Results

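The genes described here encode the subunits, activators, base assembly chaperones and named inhibitor of the proteasome, the protein-degrading complex of the cell. For short, all of them are called subunit genes. They were taken by name as every array probe whose platform symbol is PSMA, PSMB, PSMC, PSMD, PSME or PSMF followed by a number, leaving out pseudogenes and 3 genes. That rule reads gene names and not measured values. The rule found 57 of the 47323 probes on the array, for 37 of the 20046 genes that have probes of a single symbol. Of these, 48 probes for 34 genes were detected well enough to be tested, among 11218 genes tested in all. All 48 kept probes were detected on all 8 arrays. The genes PSMA7, PSMC5, PSMD7 and PSMD13, which belong to the same complex, have no such probe here and were not analysed here.

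RNA came from SKOV3 and OVCAR5, established human lines grown as ovarian carcinoma models in RPMI medium with serum. Each line was given 10 µM lovastatin, a statin that blocks HMG-CoA reductase, or the solvent DMSO, and was harvested after 48 h. The groups were SKOV3 in DMSO, SKOV3 with lovastatin, OVCAR5 in DMSO and OVCAR5 with lovastatin, each with 2 Illumina beadchip arrays. The labels name no genetic change, and a single line stands for each background. Nothing in the labels tells separate cultures from repeat arrays of the same RNA. The p-values then measure only the spread between these arrays, which may be technical.

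Each array detected 15370 to 17231 probes, and the arrays of a group correlated across genes at r = 0.988 to 0.994. Of the epithelial markers, KRT8, KRT18 and EPCAM were detected on every array, while KRT19 was detected on all SKOV3 arrays and on 0 OVCAR5 arrays. GRB7, a gene amplified in SKOV3, was detected in both SKOV3 groups on the probe used and not in OVCAR5. Its other probes were detected in SKOV3 with lovastatin but not in SKOV3 DMSO. STARD3, of the same amplified region, was detected on every array. The leukocyte markers PTPRC and CD3E and the endothelial markers PECAM1 and CDH5 were detected on 0 arrays. The collagen gene COL1A1 was detected on both arrays of each SKOV3 group and on no OVCAR5 array. With lovastatin in SKOV3, KRT19, EPCAM, GRB7 and STARD3 rose (1.89, 1.30, 2.71 and 1.63), KRT18 fell (-0.39), and KRT8, COL1A1 and COL3A1 gave -0.21, 0.07 and -0.43 without passing. COL3A1 was detected on 1 array of each SKOV3 group, the leukocyte marker CD79A on 1 SKOV3 DMSO array, and LYZ on 1 SKOV3 lovastatin and 1 OVCAR5 DMSO array.

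Proteins marked for destruction carry chains of ubiquitin and are degraded by the 26S proteasome. Its 20S core is a barrel whose outer rings are formed by PSMA proteins and whose inner rings are formed by PSMB proteins, a few of which carry the cutting sites. The 19S cap holds a base of PSMC ATPases and PSMD scaffolds, which bind and unfold the substrate, and a PSMD lid that removes the ubiquitin. PSME proteins form alternative caps that open the core without ATP. In many cell types the transcription factor NFE2L1 raises the subunit genes together when proteasome activity falls short.

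In SKOV3, 14 of the 34 tested subunit genes fell with lovastatin, 1 rose and 19 did not pass the test (limma, Benjamini-Hochberg adjusted p under 0.05 over all genes). Over all genes tested, 23.9% fell and 26.6% rose in that comparison. PSME3, the subunit of a nuclear activator of the core, fell 3.05-fold, PSMA2, of the outer ring, 2.41-fold, and PSMC3, an ATPase of the base, 2.10-fold. The other 11 that fell did so by 1.25-fold to 1.69-fold. The median log2 change of the 34 genes was -0.34, against 0.03 over all genes tested. A log2 change below 0 was found for 30 of the 34 genes, against 48.2% of all genes, and with median scaling in place of quantile normalization for 32, PSMA6 and PSME4 being the genes whose sign changed. Both lovastatin arrays lay below both DMSO arrays for 25 of the 34 genes, against 34.9% of all genes, and above them for 2, against 38.4%. In RNA of a whole culture, less transcript in each cell and fewer cells that carry it cannot be told apart. With median scaling 23 of the 34 genes fell, where 2963 of all 11218 genes did. The number also moved when single arrays were left out, as did the number over all genes.

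The 250 bases that precede the RefSeq start of the 3 genes with the largest falls are shown because these genes changed most among the subunit genes, with the CCAAT box, the sequence bound by the factor NF-Y, in capitals. Each sequence is in the gene's own direction in GRCh38.p14. For PSME3 it spans chr17:42833147-42833396 on the plus strand, and the box is read on the opposite strand, as ATTGG. For PSMA2 it spans chr7:42932175-42932424 and for PSMC3 chr11:47426440-47426689, both on the minus strand. Each of the 3 holds 1 CCAAT match. CCAAT was found in 32% of all RefSeq promoters of this length and in 37.1% of the subunit promoters. A match is a description of letters and not of binding.
PSME3: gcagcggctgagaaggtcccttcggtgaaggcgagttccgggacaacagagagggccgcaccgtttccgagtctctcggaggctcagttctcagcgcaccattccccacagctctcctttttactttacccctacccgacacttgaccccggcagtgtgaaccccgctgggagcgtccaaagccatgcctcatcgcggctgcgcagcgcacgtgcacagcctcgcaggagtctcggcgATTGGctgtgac
PSMA2: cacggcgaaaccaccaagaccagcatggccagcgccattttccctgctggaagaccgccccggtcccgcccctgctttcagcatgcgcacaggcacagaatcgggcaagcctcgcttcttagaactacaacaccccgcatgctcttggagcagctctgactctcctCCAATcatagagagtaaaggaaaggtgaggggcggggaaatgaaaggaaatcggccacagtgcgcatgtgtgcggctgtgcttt
PSMC3: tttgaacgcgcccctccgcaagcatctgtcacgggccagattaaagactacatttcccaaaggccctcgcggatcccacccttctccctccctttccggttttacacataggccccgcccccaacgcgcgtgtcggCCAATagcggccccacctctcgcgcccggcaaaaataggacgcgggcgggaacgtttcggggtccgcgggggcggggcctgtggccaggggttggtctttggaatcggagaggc

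**Figure D1:**
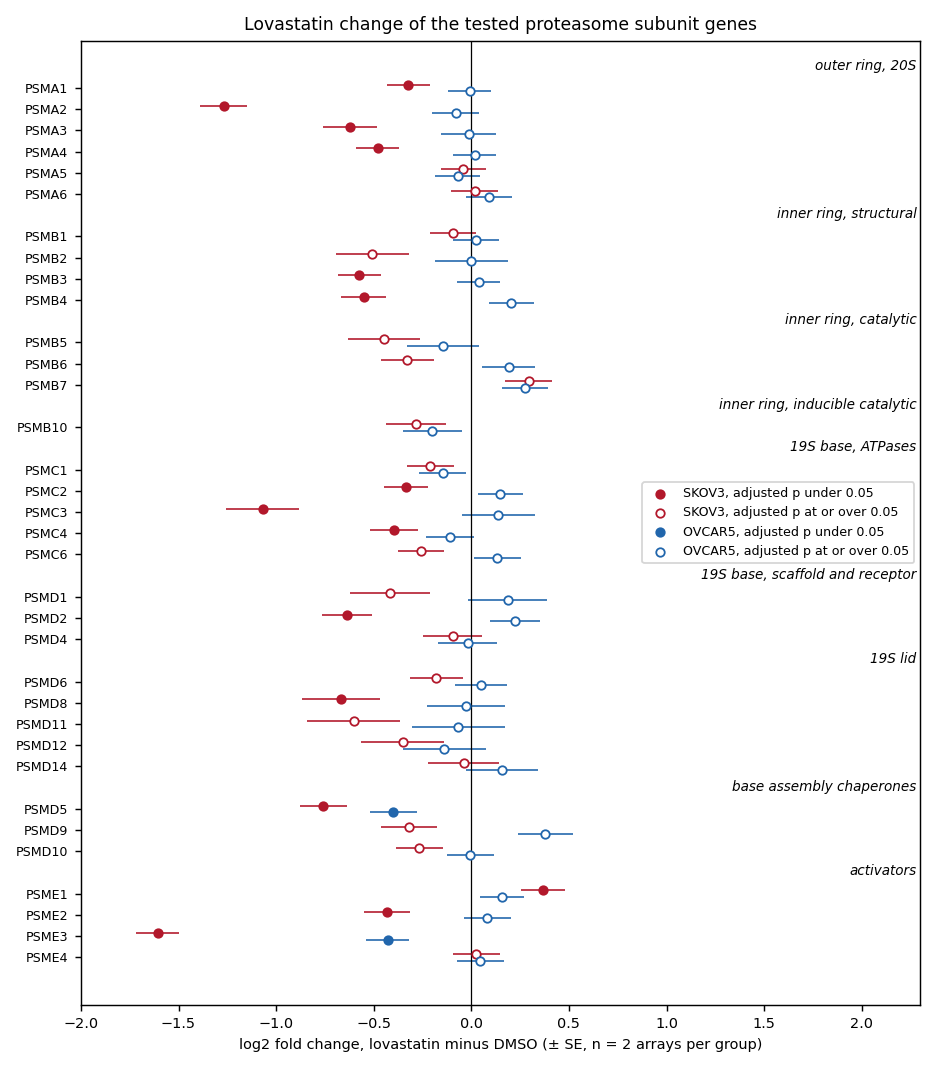
Log2 fold change of the 34 tested subunit genes, lovastatin minus DMSO, in SKOV3 (red) and OVCAR5 (blue), grouped by role, with bars of 1 standard error (n = 2 arrays per group). Filled points are adjusted p under 0.05. In SKOV3 30 of 34 points lie below 0 and 14 of those are filled, while in OVCAR5 2 points are filled.

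Of the outer ring, whose PSMA proteins gate entry to the core, 4 of 6 tested genes fell in SKOV3, against 23.9% of all genes. PSMA2 read a log2 intensity of 8.73 and 8.65 on the SKOV3 DMSO arrays, 7.41 and 7.43 with lovastatin, 9.29 and 9.27 on the OVCAR5 DMSO arrays and 9.10 and 9.30 with lovastatin. The SKOV3 lovastatin arrays were the lowest of the 8 by over 1 log2 unit, and the OVCAR5 groups overlapped. The SKOV3 change was -1.27 ± 0.12 (SE, log2, adjusted p = 6.43e-05) and the OVCAR5 change was -0.08 with a 95% half-width of 0.28. PSMA3 read 11.67 and 11.54 in SKOV3 DMSO, 11.09 and 10.88 in SKOV3 lovastatin, 12.05 and 11.82 in OVCAR5 DMSO and 11.86 and 11.99 in OVCAR5 lovastatin. Its SKOV3 groups did not overlap (log2 change -0.62 ± 0.14, adjusted p = 0.00638), and its OVCAR5 groups did. PSMA4 read 12.73 and 12.68 in SKOV3 DMSO, 12.25 and 12.20 in SKOV3 lovastatin, 12.22 and 12.25 in OVCAR5 DMSO and 12.28 and 12.23 in OVCAR5 lovastatin. The SKOV3 DMSO arrays alone stood high, and the SKOV3 change was -0.48 ± 0.11 (adjusted p = 0.00693).

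PSMA1 fell least among the outer-ring genes that passed. It read 12.59 and 12.54 in SKOV3 DMSO, 12.22 and 12.26 in SKOV3 lovastatin, 12.46 and 12.48 in OVCAR5 DMSO and 12.50 and 12.43 in OVCAR5 lovastatin. The SKOV3 change was -0.32 ± 0.11 (adjusted p = 0.0386), and a dimmer PSMA1 probe gave -0.86 (adjusted p = 0.00287 over all kept probes). Without any 1 array other than SKOV3 lovastatin replicate 2, the call on PSMA1 was lost (adjusted p 0.0627 to 0.144), as it was with each line fitted alone (0.123), and with the mean of all kept probes the change was -0.59. PSMA5 changed by -0.04 and PSMA6 by 0.02 in SKOV3, with 95% half-widths of 0.26 and 0.27. PSMA6 is the single gene whose kept probes differed in sign in SKOV3, the other probe giving -0.18 (adjusted p = 0.252). On the PSMA6 probe used, the arrays read 13.41 and 13.25 in SKOV3 DMSO, 13.39 and 13.30 in SKOV3 lovastatin, 13.04 and 13.03 in OVCAR5 DMSO and 13.09 and 13.16 in OVCAR5 lovastatin, so the SKOV3 groups overlapped.

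Of the inner ring, with quantile normalization, the structural subunits PSMB3 and PSMB4 fell in SKOV3 and the catalytic subunits did not pass the test. PSMB3 read 13.35 and 13.30 in SKOV3 DMSO, 12.71 and 12.79 in SKOV3 lovastatin, 13.30 and 13.27 in OVCAR5 DMSO and 13.33 and 13.31 in OVCAR5 lovastatin. The SKOV3 lovastatin arrays stood alone below the other 6, a log2 change of -0.57 ± 0.11 (adjusted p = 0.00286). PSMB4 read 12.40 and 12.42 in SKOV3 DMSO, 11.81 and 11.91 in SKOV3 lovastatin, 11.64 and 11.61 in OVCAR5 DMSO and 11.89 and 11.78 in OVCAR5 lovastatin. It changed by -0.55 ± 0.11 in SKOV3 (adjusted p = 0.0042) and by 0.21 in OVCAR5 (adjusted p = 0.239), with no overlap of the groups in either line. PSMB1 and PSMB2 gave -0.10 and -0.51 in SKOV3 (adjusted p = 0.527 and 0.0518), and with median scaling -0.28 and -0.65 (adjusted p = 0.148 and 0.0318). PSMB2 arrays differed within each SKOV3 group by almost as much as the group means did, at 12.12 and 12.50 in DMSO and 11.57 and 12.04 with lovastatin. Replicate 1 was the lower array in both of these groups.

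The catalytic subunits of the standard core went in different directions without passing the test under quantile normalization. PSMB5, the chymotrypsin-like site that proteasome inhibitor drugs bind, changed by -0.45 in SKOV3 (adjusted p = 0.0748), from 11.56 and 11.96 in DMSO to 11.10 and 11.52. Those groups did not overlap, and the arrays of each group lay about 0.4 log2 units apart, replicate 1 being the lower in each. PSMB6, the caspase-like site, changed by -0.33 (adjusted p = 0.0774) and PSMB7, the trypsin-like site, by 0.29 (adjusted p = 0.0696). In OVCAR5 the 3 genes gave -0.15, 0.19 and 0.27. PSMB10, an inducible catalytic subunit of the immunoproteasome, gave -0.28 in SKOV3 and -0.20 in OVCAR5 (adjusted p = 0.153 and 0.388). All 3 standard sites passed an unadjusted p under 0.05 in SKOV3. So did 20 of the 34 subunit genes and 56.9% of all genes tested, so that count is near the background. With median scaling in SKOV3, PSMB5 and PSMB6 passed as falls (-0.58 and -0.48, adjusted p = 0.0417 and 0.0395). PSMB7 then gave 0.07 (adjusted p = 0.733).

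In the base of the 19S cap all 5 tested ATPases were below 0 in SKOV3 and 3 fell, against 48.2% and 23.9% of all genes. PSMC3 read 11.81 and 11.86 in SKOV3 DMSO, 10.47 and 11.06 in SKOV3 lovastatin, 11.62 and 11.59 in OVCAR5 DMSO and 11.83 and 11.65 in OVCAR5 lovastatin. The SKOV3 lovastatin arrays were both below all others, although they differed from each other by more than the arrays of any other group did. The SKOV3 change was -1.07 ± 0.19 (adjusted p = 0.00177), and it ranged from -1.36 to -0.77 over the alternatives tried. PSMC4 read 10.69 and 10.66 in SKOV3 DMSO, 10.29 and 10.26 in SKOV3 lovastatin, 10.99 and 10.78 in OVCAR5 DMSO and 10.83 and 10.73 in OVCAR5 lovastatin. Its SKOV3 groups were well apart (-0.39 ± 0.12, adjusted p = 0.0262) and 2 further PSMC4 probes gave -0.39 and -0.50. PSMC2 read 11.60 and 11.52 in SKOV3 DMSO, 11.23 and 11.22 in SKOV3 lovastatin, 11.58 and 11.67 in OVCAR5 DMSO and 11.73 and 11.82 in OVCAR5 lovastatin. Its lovastatin arrays lay below the DMSO arrays in SKOV3 and above them in OVCAR5, with changes of -0.33 ± 0.11 (adjusted p = 0.038) and 0.15 (adjusted p = 0.394). Without any 1 of the 8 arrays the PSMC2 call was lost (adjusted p 0.0583 to 0.154), as it was with each line fitted alone (0.114). The PSMC4 call was lost without either SKOV3 DMSO array or without SKOV3 lovastatin replicate 2 (adjusted p 0.0554 to 0.103), or with each line fitted alone (0.068). PSMC1 and PSMC6 gave -0.21 and -0.26 and did not pass, although a second PSMC6 probe gave -0.65 (adjusted p = 0.0224).

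PSMD2, a base scaffold that docks ubiquitin receptors and shuttle proteins, fell in SKOV3. It read 11.79 and 11.85 in SKOV3 DMSO, 11.31 and 11.05 in SKOV3 lovastatin, 12.06 and 12.16 in OVCAR5 DMSO and 12.30 and 12.37 in OVCAR5 lovastatin. In SKOV3 the lovastatin arrays were lower, and in OVCAR5 they were higher, than the DMSO arrays of the same line. The SKOV3 change was -0.64 ± 0.13 (adjusted p = 0.0038) and the OVCAR5 change 0.22 (adjusted p = 0.255). The other scaffold, PSMD1, gave -0.42 (adjusted p = 0.12) on SKOV3 lovastatin arrays of 10.74 and 10.05, 1 of them close to the DMSO level of 10.84 and 10.78. The ubiquitin receptor PSMD4 gave -0.10 (adjusted p = 0.624).

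In the lid, 1 of 5 tested genes fell in SKOV3, PSMD8, which is near the 23.9% of all genes. All 5 were below 0, against 48.2% of all genes. PSMD8, whose yeast counterpart helps the lid join the base, read 10.83 and 10.96 in SKOV3 DMSO, 9.92 and 10.54 in SKOV3 lovastatin, 10.74 and 10.67 in OVCAR5 DMSO and 10.80 and 10.56 in OVCAR5 lovastatin. The SKOV3 groups did not overlap, but most of the change came from lovastatin replicate 1. The change was -0.67 ± 0.20 (adjusted p = 0.0231), and without SKOV3 lovastatin replicate 1 it was -0.35 (adjusted p = 0.0898). The call was also lost without SKOV3 DMSO replicate 1 or 2 (adjusted p = 0.0649 and 0.113). PSMD11 and PSMD12 gave -0.60 and -0.35 with adjusted p of 0.0649 and 0.203. In PSMD11 the SKOV3 lovastatin arrays read 8.86 and 8.05 against 9.02 and 9.09 in DMSO. PSMD14, the deubiquitinase of the lid, gave -0.04, and PSMD6, a lid scaffold subunit, gave -0.18, neither past the test.

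PSMD5, PSMD9 and PSMD10 are chaperones that help to assemble the base and are not part of the finished complex. PSMD5 fell in both lines. It read 8.42 and 8.34 in SKOV3 DMSO, 7.67 and 7.58 in SKOV3 lovastatin, 8.05 and 8.03 in OVCAR5 DMSO and 7.73 and 7.55 in OVCAR5 lovastatin. Every lovastatin array of PSMD5 lay below every DMSO array. The change was -0.76 ± 0.12 in SKOV3 (adjusted p = 0.00104) and -0.40 ± 0.12 in OVCAR5 (adjusted p = 0.0455), and the difference of the changes was -0.36 (adjusted p = 0.155). Without any 1 OVCAR5 array the OVCAR5 call on PSMD5 was lost (adjusted p 0.0847 to 0.235), as it was without either SKOV3 DMSO array (adjusted p = 0.0705 in each case), with no detection filter (0.0569), over every kept probe (0.0537) and with each line fitted alone (0.0505). PSMD10, also known as gankyrin, gave -0.27 in SKOV3 (adjusted p = 0.0961) and -0.01 in OVCAR5.

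With lovastatin in SKOV3, the activators held both the largest fall and the only rise among the tested subunit genes. PSME3 read 10.42 and 10.39 in SKOV3 DMSO, 8.83 and 8.76 in SKOV3 lovastatin, 10.24 and 10.27 in OVCAR5 DMSO and 9.81 and 9.85 in OVCAR5 lovastatin. Lovastatin arrays lay below DMSO arrays in both lines, and further below in SKOV3. The change was -1.61 ± 0.11 in SKOV3 (adjusted p = 1.17e-05) and -0.43 ± 0.11 in OVCAR5 (adjusted p = 0.0261), and a second PSME3 probe gave -1.72 and -0.44. The OVCAR5 call on PSME3 was lost without any 1 OVCAR5 array (adjusted p 0.0986 to 0.138).

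PSME1 and PSME2 encode the partner chains of the interferon-inducible activator and lie on chromosome 14, at chr14:24136194-24138962 and chr14:24143365-24146610. Their SKOV3 changes had opposite signs. PSME1 read 11.76 and 11.73 in SKOV3 DMSO, 12.16 and 12.06 in SKOV3 lovastatin, 12.14 and 12.17 in OVCAR5 DMSO and 12.28 and 12.34 in OVCAR5 lovastatin. PSME2 read 10.86 and 10.81 in SKOV3 DMSO, 10.36 and 10.45 in SKOV3 lovastatin, 12.25 and 12.09 in OVCAR5 DMSO and 12.22 and 12.29 in OVCAR5 lovastatin. The SKOV3 groups did not overlap for either gene, and PSME2 was lower in every SKOV3 array than in every OVCAR5 array. PSME1 rose by 0.37 ± 0.11 (adjusted p = 0.025) and PSME2 fell, with a change of -0.43 ± 0.12 (adjusted p = 0.016). The PSME1 call was lost without SKOV3 DMSO replicate 1, SKOV3 DMSO replicate 2 or SKOV3 lovastatin replicate 1 (adjusted p = 0.0808, 0.098 and 0.0601). With median scaling PSME1 gave 0.20 (adjusted p = 0.193), and with each line fitted alone it did not pass (adjusted p = 0.0889). The PSME2 call was lost without either SKOV3 DMSO array (adjusted p = 0.0794 and 0.0536) or with each line fitted alone (0.0529). PSME4, the large activator also called PA200, gave 0.03 in SKOV3 and 0.05 in OVCAR5.

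**Figure D2:**
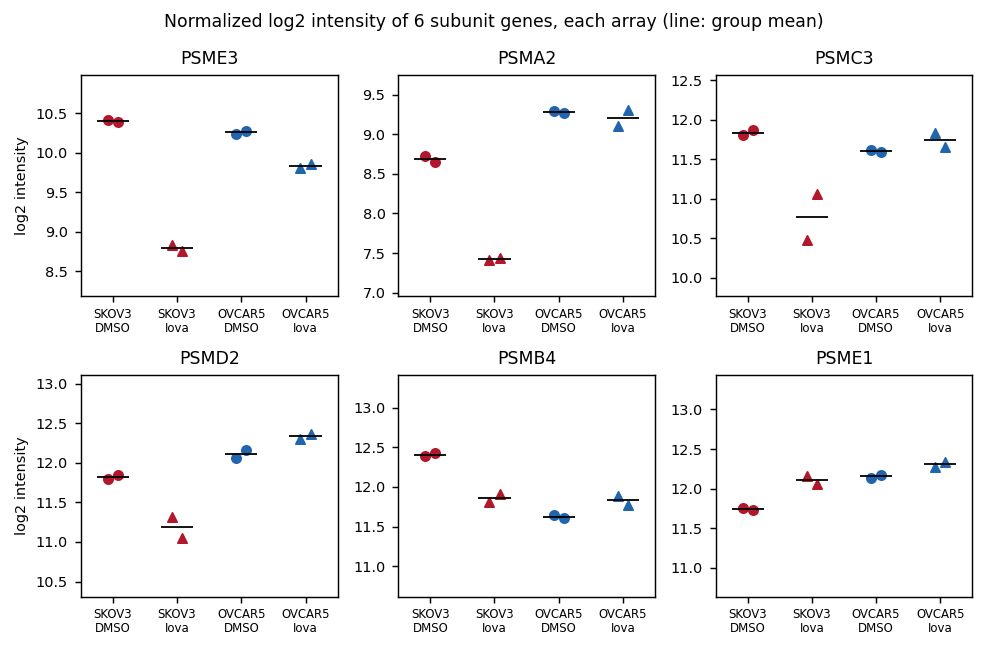
Normalized log2 intensity of PSME3, PSMA2, PSMC3, PSMD2, PSMB4 and PSME1 on each of the 8 arrays, with circles for DMSO, triangles for lovastatin (lova) and a line at each group mean (n = 2 arrays per group). In SKOV3 the lovastatin arrays lie below the DMSO arrays for the 5 genes other than PSME1 and above them for PSME1.

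The SKOV3 lovastatin arrays differed from each other more than the arrays of the other groups. Over the 34 genes the SD of the difference between the arrays was 0.34 log2 units there, against 0.11 to 0.14 in the other 3 groups. Over all genes it was 0.34 against 0.24 to 0.26. Replicate 1 was the lower array for PSMC3 and PSMD8, and replicate 2 for PSMD1, PSMD11 and PSMD12. The part of this spread in the subunit results was not tested beyond leaving out each array, as given beside them.

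The 3 genes not tested were PSMA8, a core subunit of the testis, PSMB11, the catalytic subunit of the thymus, and PSMF1, an inhibitor of the core. Their probes were detected on 0 of 8 arrays. PSMF1 is expressed in most tissues, and its single probe here gave detection p-values from 0.360 to 0.903. Of the 9 probes not kept, 3 of the 4 PSMD12 probes and 1 PSMA1 probe were also detected on 0 arrays, and 1 PSME1 probe on 1 array. For the 11 tested genes with several kept probes, the SKOV3 call was the same for 10, PSMC6 being the exception.

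In OVCAR5, 2 of the 34 subunit genes fell with lovastatin, PSMD5 and PSME3, and 0 rose. Over all genes tested 9.29% fell and 13.5% rose. Unadjusted, 4 of the 34 passed p under 0.05 in limma, against 35.9% of all genes. With trended and robust variance or with no background correction 1 gene rose, against 1695 and 1671 of all 11218 genes. PSMD9 had the highest value, 0.38, which did not pass (adjusted p = 0.0923). The median log2 change was 0.02, against 0.01 over all genes, and 16 genes were below 0 and 18 above, against 48.6% of all genes below. Both lovastatin arrays lay below both DMSO arrays for 7 genes, against 31.8% of all genes, and above them for 13, against 35.2%. With median scaling, 14 of the 34 signs changed and 30 genes were below 0, while the median of all genes also moved by -0.12 log2 units. PSMD5 and PSME3 passed under both scalings, with changes of -0.45 and -0.60 with median scaling. Both calls were lost without any 1 OVCAR5 array, and that on PSMD5 without either SKOV3 DMSO array, as given above. Fewer of all genes also fell in those fits.

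**Figure D3:**
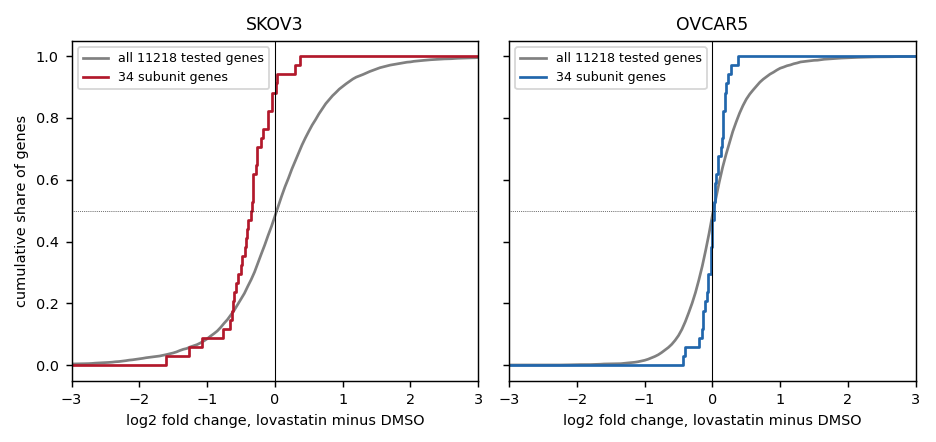
Cumulative share of genes against log2 fold change, lovastatin minus DMSO, for the 34 subunit genes (coloured steps) and all 11218 tested genes (grey), in SKOV3 and OVCAR5, with a dotted line at the median. The SKOV3 steps lie left of the grey curve around their median of -0.34, and the OVCAR5 steps cross it near 0.02.

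The lovastatin change was compared directly between the lines as the SKOV3 change minus the OVCAR5 change, which rests on all 4 groups. For 8 subunit genes this difference was below 0 with an adjusted p under 0.05, and for 0 it was above 0. Over all genes tested 14.5% passed below 0 and 12.8% above. At an unadjusted p under 0.05, 13 of the 34 passed in either direction, against 39.8% of all genes, which is near the background. The genes were PSMA2, PSMA4, PSMB3, PSMB4, PSMC3, PSMD2, PSMD9 and PSME3. The largest differences were -1.20 ± 0.26 for PSMC3 (adjusted p = 0.0117), -1.19 ± 0.17 for PSMA2 (adjusted p = 0.00171) and -1.18 ± 0.16 for PSME3 (adjusted p = 0.00116). PSMD2 differed by -0.86 ± 0.18 (adjusted p = 0.0103) and PSMB4 by -0.76 ± 0.16 (adjusted p = 0.0105). The median difference over the 34 genes was -0.37, against -0.02 over all genes.

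PSMD9 passed for the difference without passing in either line. It read 7.44 and 7.44 in SKOV3 DMSO, 7.06 and 7.18 in SKOV3 lovastatin, 6.38 and 6.71 in OVCAR5 DMSO and 6.86 and 6.99 in OVCAR5 lovastatin. The gene was lower with lovastatin on both SKOV3 arrays and higher on both OVCAR5 arrays, with changes of -0.32 and 0.38 and a difference of -0.70 ± 0.20 (adjusted p = 0.0345). The PSMD9 call was lost without any 1 array other than SKOV3 lovastatin replicate 2 or OVCAR5 DMSO replicate 2 (adjusted p 0.0663 to 0.12), or with no detection filter (0.0514), and with no background correction the difference was -0.39. The PSMA4 difference of -0.50 was lost without any 1 array other than SKOV3 lovastatin replicate 1 (adjusted p 0.0519 to 0.137). It was lost as well with median scaling (0.103), no detection filter (0.0519), the mean of all kept probes (0.0527) and every kept probe (0.055). The PSMB3 difference of -0.61 was lost without either SKOV3 DMSO array or any 1 OVCAR5 array (adjusted p 0.054 to 0.0786). Without either SKOV3 DMSO array, OVCAR5 DMSO replicate 1 or either OVCAR5 lovastatin array, fewer subunit genes and fewer of all genes passed. PSMA2, PSMB4, PSMC3, PSMD2 and PSME3 passed under every alternative tried for this difference.

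Without drug, the subunit genes did not pass more often than genes in general. In DMSO 9 of the 34 genes were higher in SKOV3 than in OVCAR5 and 5 lower, against 32.3% and 29.6% of all genes. With median scaling the split was 3 higher and 9 lower, and that over all 11218 genes was 3178 higher and 3990 lower. Both SKOV3 arrays lay above both OVCAR5 arrays for 19 genes, against 42.8% of all genes, and below them for 9, against 40.7%. Median scaling changed the sign of 13 of the 34 genes and moved the median of all genes by -0.13, so the direction of the family as a whole depended on the scaling. PSMB4, PSMD9 and PSMD10 were higher in SKOV3, and PSMA2, PSME2 and PSME4 lower, under every alternative tried for this comparison. The arrays of PSMD10 read 11.02 and 11.04 in SKOV3 DMSO and 10.23 and 10.20 in OVCAR5 DMSO, and the difference was 0.82 ± 0.12 (adjusted p = 0.000431). PSMD9 and PSMB4, whose arrays are given above, differed by 0.89 (adjusted p = 0.000703) and 0.78 (adjusted p = 0.000412). PSMD9 gave 0.50 with no background correction and PSMB4 gave 0.44 with median scaling, both still past the test. PSME4 differed by -0.51, and by -0.80 with median scaling.

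Among the 34 genes the largest difference between the lines was in PSME2, at -1.34 ± 0.12 (adjusted p = 2.17e-05), or 2.52-fold lower in SKOV3. PSME1 was lower as well, by a difference of -0.41 (adjusted p = 0.0125), or -0.76 with median scaling, and PSMB5 by -0.70 (adjusted p = 0.00989). These 3 genes lie on chromosome 14, which holds 7 of the tested genes, and the other 4 did not pass. Of those 4, PSMA3 passed with median scaling, at -0.68 (adjusted p = 0.00234). The PSME1 call was lost without SKOV3 DMSO replicate 2, OVCAR5 DMSO replicate 1 or OVCAR5 DMSO replicate 2 (adjusted p = 0.0578, 0.0552 and 0.0705), and the PSMB5 call without SKOV3 DMSO replicate 1 (adjusted p = 0.0796). PSMA4, PSMA5, PSMB1, PSMB7, PSMD5 and PSMD6 were the other genes higher in SKOV3, and none of them passed with median scaling. The PSMA5, PSMB7 and PSMD5 calls were also lost without SKOV3 DMSO replicate 1 (adjusted p = 0.0986, 0.0502 and 0.149) and without OVCAR5 DMSO replicate 2 (adjusted p = 0.0723, 0.0753 and 0.137). Without OVCAR5 DMSO replicate 1 the calls on PSMA5 and PSMD5 were lost (adjusted p = 0.0921 and 0.112), and without SKOV3 DMSO replicate 2 that on PSMD5 (adjusted p = 0.0764). Fewer subunit genes, and fewer of all genes, passed as higher without SKOV3 DMSO replicate 1 or without OVCAR5 DMSO replicate 2.

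**Figure D4:**
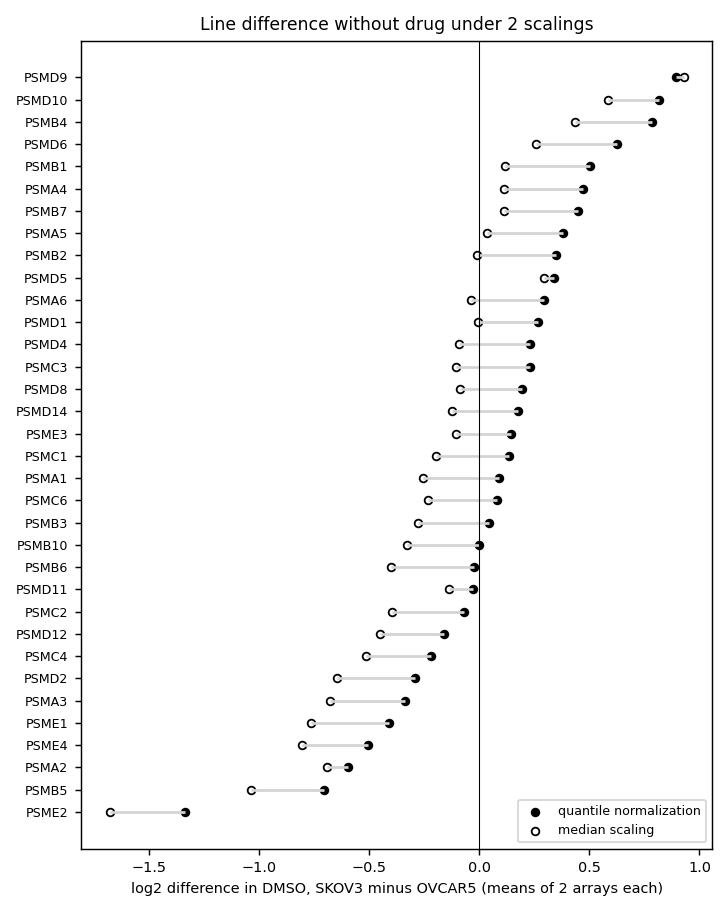
Log2 difference in DMSO, SKOV3 minus OVCAR5, of the 34 subunit genes with quantile normalization (filled) and with median scaling (open), from means of 2 arrays per line. Most genes move to the left with median scaling, and 13 change sign.

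Other genes of the pathway were read from lists by role. Of the factors that control subunit transcription, 4 of 5 tested genes rose in SKOV3 and 0 fell, with a list median of 1.72. Over all genes tested, 26.6% rose and 23.9% fell there. NFE2L1, which activates subunit genes after release from the endoplasmic reticulum, read 9.37 and 9.27 in SKOV3 DMSO, 11.07 and 11.23 in SKOV3 lovastatin, 9.42 and 9.50 in OVCAR5 DMSO and 9.64 and 9.81 in OVCAR5 lovastatin. The SKOV3 lovastatin arrays stood above all others, a rise of 1.83 ± 0.13 (adjusted p = 1.18e-05), and the OVCAR5 change was 0.27 (adjusted p = 0.168). The difference of those changes was 1.56 (adjusted p = 0.000586). Its partners MAFF and MAFG rose by 1.80 and 1.72 in SKOV3, and its relative NFE2L2, the factor of the antioxidant response, by 0.99. MAFG rose in OVCAR5 too, by 0.77 (adjusted p = 0.00279). NGLY1, the enzyme that removes sugar chains from NFE2L1, gave -0.01 in SKOV3, and DDI2 and MAFK were not tested.

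Of 6 genes for assembly and maturation of the complex, PSMG1, a chaperone of the outer ring, and PAAF1, a chaperone of the base, fell in SKOV3 (-0.54 and -0.75, adjusted p = 0.00793 and 0.00151). PSMG3 did not pass with lovastatin in either line, and in DMSO it was 4.76-fold lower in SKOV3 than in OVCAR5 (adjusted p = 7.2e-06). POMP, which matures the core, gave -0.20 in SKOV3. Among 7 further cap subunits and associated enzymes, UCHL5, a deubiquitinase of the cap, fell in SKOV3 (-0.88, adjusted p = 0.00289) and in OVCAR5 (-0.63, adjusted p = 0.0308). The other 6, among them the ubiquitin receptor ADRM1 and the deubiquitinase USP14, did not pass in either line. For both lists the background is that 23.9% of all genes fell in SKOV3 and 9.29% in OVCAR5.

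VCP, the ATPase that extracts ubiquitinated proteins for the proteasome, read 11.14 and 11.20 in SKOV3 DMSO, 10.21 and 10.72 in SKOV3 lovastatin, 10.31 and 10.33 in OVCAR5 DMSO and 10.70 and 10.35 in OVCAR5 lovastatin. The SKOV3 groups were apart and the SKOV3 lovastatin arrays differed widely. VCP changed by -0.70 in SKOV3 (adjusted p = 0.014) and by 0.20 in OVCAR5 (adjusted p = 0.497), and the difference was -0.90 (adjusted p = 0.0366). Its cofactors UFD1 and FAF1 fell in SKOV3 (-0.56 and -0.53) and in OVCAR5 (-0.49 and -0.39, limma adjusted p = 0.0335 and 0.0422). Over all genes, 9.29% fell in OVCAR5. Alternative settings are reported here for the subunit genes only, not for the genes of these lists. Of the 7 genes of that list 3 fell in SKOV3 and 0 rose, against 23.9% and 26.6% of all genes. Of 6 tested genes on the shuttle list, ZFAND2A rose by 1.24 and ZFAND5 by 0.43 in SKOV3, and ZFAND5 by 0.69 in OVCAR5. Over all genes, 26.6% rose in SKOV3 and 13.5% in OVCAR5. RAD23B, UBQLN1, UBQLN2 and UBQLN4, which carry ubiquitinated proteins to the cap, passed in neither line. In SKOV3 they gave 0.08, 0.20, -0.03 and 0.19. Of the ubiquitin gene UBB and the ubiquitin-activating enzymes UBA1 and UBA6, 0 of 3 passed in either line by limma. The change of the subunit genes and that of these regulators stand side by side on the same arrays, and whether they are linked was not tested.

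**Figure D5:**
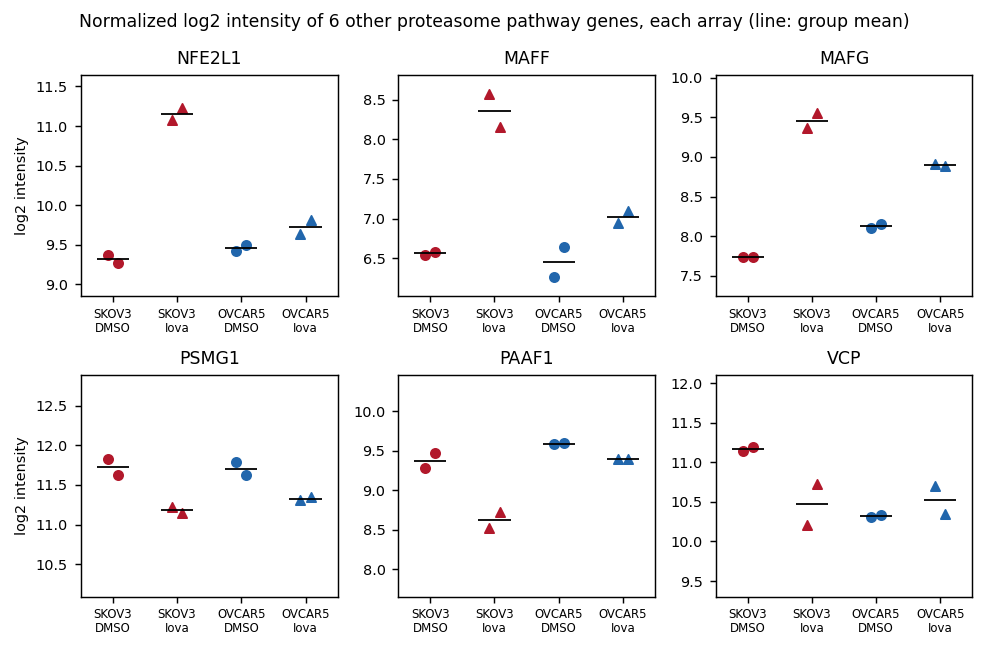
Normalized log2 intensity of NFE2L1, MAFF, MAFG, PSMG1, PAAF1 and VCP on each of the 8 arrays, with circles for DMSO, triangles for lovastatin (lova) and a line at each group mean (n = 2 arrays per group). In SKOV3 the lovastatin arrays of the 3 transcription factors lie above the DMSO arrays and those of PSMG1, PAAF1 and VCP below.

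NFE2L1 and NFE2L2 bind an antioxidant response element with the core TGACNNNGC, so the 250 bases before the RefSeq starts were searched for it and for CCAAT, on both strands. Of the 34 tested genes 30 have an entry, with 35 promoters in all. TGACNNNGC was found in 8 of the 35 subunit promoters (22.9%), against 10.9% of 35116 RefSeq promoters of the same length, and CCAAT in 13 (37.1%), against 32%. Of the 14 genes that fell in SKOV3, 4 hold TGACNNNGC and 8 hold CCAAT. Of the 16 other genes with an entry, 4 hold TGACNNNGC and 5 hold CCAAT. None of the 9 TGACNNNGC matches overlaps a CCAAT match (0 of 9). The matches are a description of letters and not of binding, and PSME3, PSMA2 and PSMC3, printed above, hold 0 TGACNNNGC matches in this window. Of the 9 matches, those of PSMD12 and PSME4 (which differed between the lines in DMSO) are not printed. Neither is another PSMD9 match, on the opposite strand at chr12:121888631-121888659. The windows below are shown because their genes fell (PSMA4, PSMB3, PSMD5 and PSME2), rose (PSME1) or differed between the lines in lovastatin change (PSMD9). The PSMA4 window precedes a RefSeq start that lies inside the annotated gene, which begins at chr15:78540405. These windows have the core in capitals and 10 bases on each side. They are in GRCh38.p14 and in the gene's direction, at chr15:78540650-78540678 (plus strand) for PSMA4, chr17:38752627-38752655 (plus) for PSMB3, chr9:120843038-120843066 (minus) for PSMD5, chr14:24146767-24146795 (minus) for PSME2, chr14:24136098-24136126 (plus) for PSME1 and chr12:121888678-121888706 (plus) for PSMD9.
PSMA4: gtgggcacgaTGACTCTGCaccgcctcct
PSMB3: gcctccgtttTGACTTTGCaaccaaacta
PSMD5: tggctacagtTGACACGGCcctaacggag
PSME2: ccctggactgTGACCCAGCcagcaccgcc
PSME1: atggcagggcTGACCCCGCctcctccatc
PSMD9: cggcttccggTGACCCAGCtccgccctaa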

How the data were processed

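Total RNA was labelled as biotinylated cRNA and read on 8 arrays, per the labels' protocols. The authors deposited bead intensity without normalization, per the file headers, and beside each value a detection p-value, which sets the probe against negative controls. The authors' deposited log2 values of the same arrays were made with limma, per the submitters' processing notes, its version not given in the sources used here. They lay within 0.01 log2 of neqc within each line for 99.997% (SKOV3) and 99.987% (OVCAR5) of values, with array medians of 4.81 and 4.74 and 1 missing value. They were taken as log2 and uncentred, and served as an alternative.

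From the intensity, limma 3.58.1 in R 4.3.3 (neqc) corrected the background with detection p-values, added an offset of 16 and quantile-normalized all 8 arrays. A probe entered where 2 or more arrays gave a detection p under 0.01, and the brightest kept probe stood for its gene. lmFit and eBayes were fitted on 4 group means with 1 shared spread, with Benjamini-Hochberg adjustment over 11218 genes and a threshold of 0.05. The code was tested on simulated data. Intensity depends on the probe, so no level was set against that of another gene. Quantile normalization gives each array the same distribution, so changes are relative to the other genes. Having 2 arrays per group limits the precision, and the sources used here name no slide or scan.

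The subunit genes, the pathway lists and the tests were chosen with earlier results of these data known. Every subunit gene could be named, other pathway genes only from those lists (6 to 8 genes each), and array values are given for genes past the test in a comparison of lovastatin. Array values of other genes (PSMA6 for its probes of opposite sign, and PSMB2, PSMB5, PSMD1, PSMD10, PSMD11, NFE2L1 and VCP) were added to show the spread, the last 7 after their values were seen. The 3 genes that carry such symbols and were left out are not reported here. Other settings tried were median scaling, no background correction, other detection filters, other ways to join probes, trended and robust variance, each line alone, a replicate block, the authors' values and leaving out each array. Promoter sequences are RefSeq's, from GRCh38.p14. Plots used matplotlib 3.10.9 (Python 3.11.15).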

Additional observations from a re-analysis of the deposited data

Results flagged for a closer look

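For 8 subunit genes the lovastatin change differed between the lines by the test of the difference itself, SKOV3 change minus OVCAR5 change on the log2 scale (limma, adjusted p under 0.05). The values were -1.189 for PSMA2, -0.4968 for PSMA4, -0.6121 for PSMB3 and -0.7565 for PSMB4. They were -1.205 for PSMC3, -0.8618 for PSMD2, -0.6982 for PSMD9 and -1.179 for PSME3. All 8 lie below 0, where 14.5% of all genes tested passed.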

How the results depend on the processing

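Of the subunit calls reported, 9 of 15 in SKOV3, 0 of 2 in OVCAR5, 5 of 8 between the responses of the lines and 6 of 14 in DMSO passed under every alternative, and 0 called genes reversed. With median scaling, the SKOV3 change counted 0 genes higher and 23 lower with a median of -0.48, the OVCAR5 median was -0.16, the median difference was -0.33, and DMSO counted 3 higher and 9 lower with a median of -0.13. Median scaling moved the median of all genes by -0.05, -0.12, 0.04 and -0.13 in the same order. Over all 11218 genes it gave 2656 higher and 2963 lower in SKOV3, and 3178 higher and 3990 lower in DMSO. With no background correction, 2 genes were higher in SKOV3 and 1 in OVCAR5, and the difference counted 13 lower with a median of -0.34. Over all genes, 3067 and 1671 were then higher, and the difference counted 1765 lower. With no detection filter, 1 gene was lower in OVCAR5, against 898 of all 20046 genes. With probes detected on all 8 arrays, 2 were higher in SKOV3, against 2299 of all 7976 genes. With the mean of all kept probes, the medians were -0.42 in SKOV3, -0.42 for the difference and 0.18 in DMSO. Counting every kept probe, they were -0.37 in SKOV3, -0.0108 for OVCAR5 and -0.32 for the line difference. Trended and robust variance gave 2 genes higher and 19 lower in SKOV3, 1 higher in OVCAR5 and 12 lower for the difference. Over all genes these counts were 3072, 2807, 1695 and 1777. Each line fitted alone gave 0 higher and 10 lower in SKOV3 and 1 lower in OVCAR5. Over all genes these counts were 2646, 2358 and 1251. For these shifts the cause was not tested. The 2-array groups share replicate numbers, but the deviations of same-numbered arrays correlated at 0.227 in SKOV3 and -0.0265 in OVCAR5, so the numbers were not taken as pairs. With the replicate block, 1 gene was lower in OVCAR5, where PSMD5 was lost (adjusted p = 0.0573). The SKOV3 count stayed at 14 lower and 1 higher although PSMA1 and PSMC2 were lost (0.0602 and 0.0515). Other subunit genes thus passed as falls in their place. The PSMA4 difference was lost as well (0.0687). Over all genes the block gave 1050 lower in OVCAR5, and 2758 lower and 3061 higher in SKOV3. Leaving out each array in turn gave 9 to 16 lower, 0 to 1 higher and a median of -0.36 to -0.31 in SKOV3. In OVCAR5 it gave a median of 0.02 to 0.05. The difference gave 5 to 11 lower with a median of -0.42 to -0.32, and DMSO gave 6 to 11 higher, 4 to 7 lower and a median of 0.10 to 0.15. With 1 array left in a group, that array is assumed to vary like the other groups. The numbers of subunit genes past the test moved when single arrays were left out, and so did the counts over all genes. The comparison in DMSO was not run on values normalized within a line. Every tested subunit gene was detected on all 8 arrays, but background correction still moved PSMD9, whose difference was -0.70 with it and -0.39 without.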
